A study of Mus musculus with 6 samples.

Results

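The 38 genes described here encode the machinery of autophagy and of mitophagy, the removal of mitochondria by autophagy. They were chosen by name, from the steps of the pathway, with earlier results of these data known. A probe set counted for a gene where the platform annotation named that gene alone. Of the 38 genes, 37 had such probe sets and all 37 were past the filter on dim probe sets, among 14586 genes tested in all. The remaining gene was not analysed here. The 37 genes were covered by 489 probe sets, of which 390 were past the filter.

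The data are 6 gene expression arrays of blood-forming stem cells from the bone marrow of mice. The sort took KLS CD34- cells, that is lineage-negative cells with c-Kit and Sca-1 on their surface and without CD34. Of the arrays, 3 held cells of Vav-Cre positive mice with floxed beta-catenin alleles, called floxed arrays, and 3 held cells of controls, whose alleles the labels do not give. Vav-Cre is active in blood-forming cells in general, so recombination is not limited to stem cells. Age, sex and pooling of animals are not given in the sources used here, nor whether the replicates were separate animals, so a p-value covers only how far these samples vary, and that variation may be technical.

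In autophagy, a kinase complex around ULK1 starts a membrane at which the lipid kinase PIK3C3, bound to Beclin 1, makes phosphatidylinositol 3-phosphate. A pair of ubiquitin-like systems then attach LC3 and GABARAP proteins to the growing membrane, receptors bring in cargo, and the closed vesicle fuses with a lysosome. In mitophagy the kinase PINK1 marks damaged mitochondria, while receptors such as FUNDC1 act from the outer mitochondrial membrane. In mouse blood-forming cells, deletion of Atg7, Atg5, Atg12 or Rb1cc1 is known to impair stem cells, and the transcription factor FOXO3 is known to maintain autophagy genes there.

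No autophagy or mitophagy gene passed the test between floxed and control arrays. Values are log2 expression as deposited, a gene's value on an array being the median over its probe sets past the filter, and fold changes are floxed minus control. In limma with Benjamini-Hochberg adjustment over all genes, 0 of 37 members passed at 0.05, where 0% of all 14586 genes passed. At an unadjusted p under 0.05 there were also 0 of 37 members, against 3.7% of all genes, 2.43% higher and 1.28% lower in floxed arrays. The smallest unadjusted limma p of a member was 0.0990, for Pik3r4. The limma adjusted p was 0.999 for every member, so it is not repeated at each gene. The groups did not overlap for 1 of 37 members, Pik3r4, against 8.44% of all genes, 5.57% with floxed higher and 2.87% with floxed lower. All log2 fold changes of the 37 genes lay between −0.25 and 0.27, whereas 2.04% of all genes were more than 0.5 away from 0.

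The intervals give the size of change that these arrays could still hold. The 95% confidence interval lay within 0.5 log2 of 0 for 18 of 37 members and within 1 log2 for 37 of 37. The median SE of a member's log2 fold change was 0.16, against 0.17 over all genes. An interval that includes 0 does not show that a gene was equal in both groups.

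**Figure D1:**
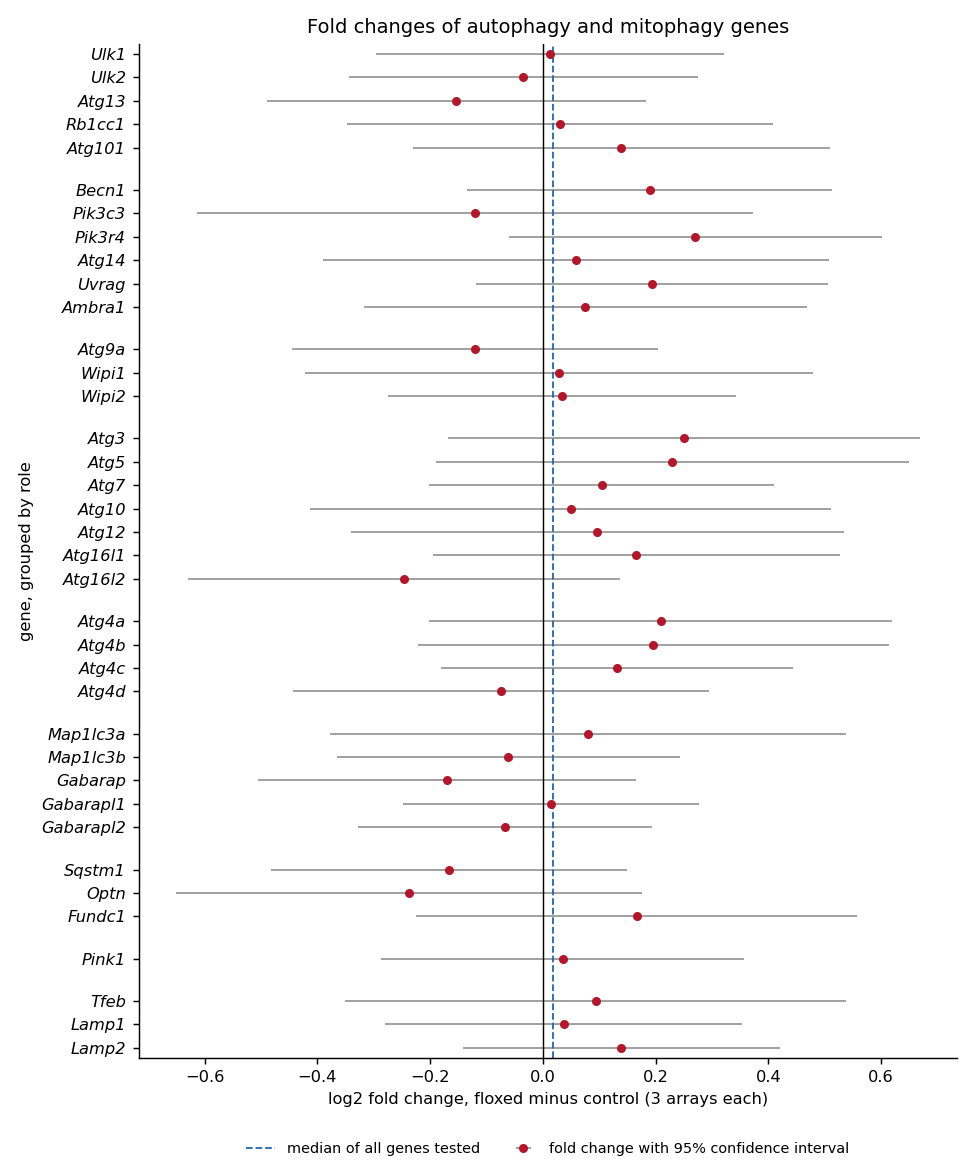
Log2 fold change of each of the 37 genes, floxed minus control arrays (3 each), with limma's 95% confidence interval, grouped by role from the initiation complex at the top to the lysosomal genes at the bottom. Every interval crosses 0, and the dashed line marks the median of all 14586 genes, 0.02.

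More members were higher than lower in floxed arrays, and that balance depended on which arrays were included. Of the 37 genes, 26 had a higher and 11 a lower mean in floxed arrays. The median log2 fold change was 0.05, against 0.02 over all genes, of which 54.2% were higher. Without control replicate 3, 15 members were higher and 22 lower, with a median of −0.04, against 50.4% of all genes. Without control replicate 2 the count was 21 higher, against 59.3% of all genes, and without floxed replicate 3 it was 20 higher, against 51.3%. The count of higher members was 21 with quantile normalization, where 45.5% of all genes were higher, and 22 with equal array medians, where it was 46.9%.

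**Figure D2:**
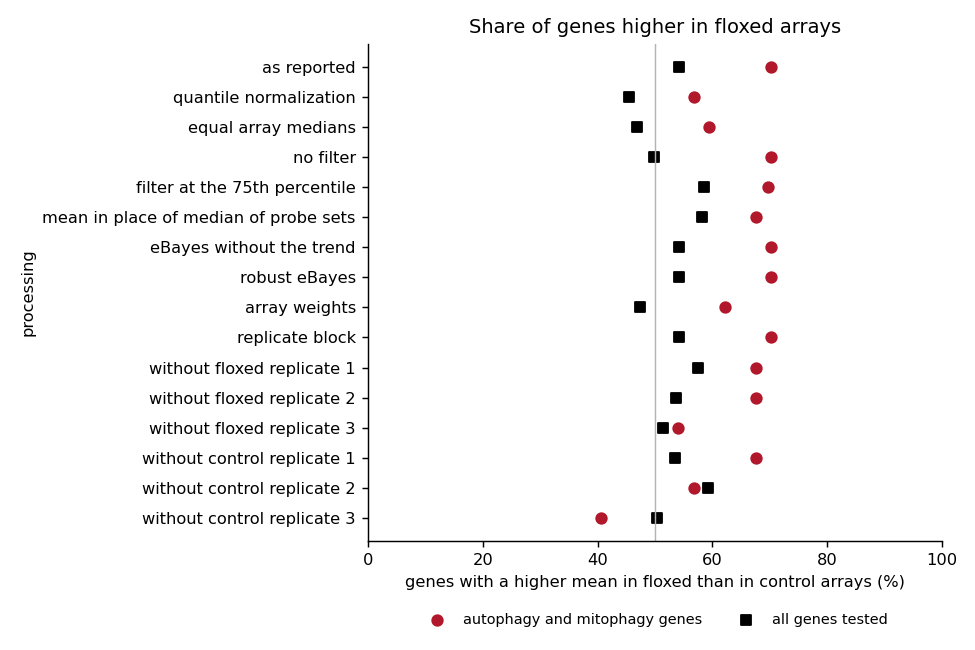
Percentage of genes with a higher mean in floxed than in control arrays, for the 37 autophagy and mitophagy genes and for all genes tested, as reported and under each of 15 alternatives. The members lie right of all genes in most settings and left of them without control replicate 2 (21 of 37 against 59.3%) and control replicate 3 (15 of 37 against 50.4%).

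The initiation complex, in which the kinases ULK1 or ULK2 bind ATG13, ATG101 and the scaffold RB1CC1 (also called FIP200), had 3 of 5 genes higher and a median log2 fold change of 0.01. Ulk1 had 9.74, 9.70 and 9.79 on floxed replicates 1, 2 and 3, against 9.90, 9.77 and 9.53 on control replicates 1, 2 and 3. Its 3 floxed values lay inside the range of the controls, and the log2 fold change was 0.01 (SE 0.14). That sign turned under 8 of the 12 alternatives that can move a fold change, with values from −0.13 to 0.10. Rb1cc1 had 8.84, 8.54 and 9.06 in floxed arrays, against 8.90, 8.67 and 8.78 in controls. Here the controls lay inside the floxed range, with a log2 fold change of 0.03 (SE 0.17), from −0.14 to 0.28 over the alternatives. Ulk2, Atg13 and Atg101 had log2 fold changes of −0.03, −0.15 and 0.14. Atg13 kept its lower mean, and Atg101 its higher mean, under every alternative that measured them, although neither passed.

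The nucleation complex makes phosphatidylinositol 3-phosphate at the forming membrane, and 5 of its 6 genes had a higher mean in floxed arrays (median log2 fold change 0.13). Pik3r4 encodes the regulatory subunit that anchors the lipid kinase (VPS15). Its log2 values were 9.02, 9.16 and 9.27 in floxed arrays, against 8.93, 8.98 and 8.72 in control arrays. The lowest floxed value thus stood just above the highest control, and the log2 fold change was 0.27 (SE 0.15, 95% confidence interval −0.06 to 0.60). The two-sided exact permutation p over arrays was 0.1, and no split of 3 and 3 arrays can give a lower one. Pik3r4 stayed higher under the 12 alternatives that can move a fold change, at 0.14 to 0.37.

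Becn1, which encodes Beclin 1, had 9.47, 9.36 and 9.35 in floxed arrays, against 9.04, 9.40 and 9.18 in control arrays. Control replicate 2 stood among the floxed arrays, and the log2 fold change was 0.19 (SE 0.15). Uvrag, whose product binds Beclin 1 in the complex that acts on endosomes and late autophagosomes, had 9.45, 9.49 and 9.24 in floxed arrays, against 9.27, 9.25 and 9.09 in control arrays. Floxed replicate 3 lay among the controls, with a log2 fold change of 0.19 (SE 0.14). Pik3c3, the lipid kinase itself, stood on the lower side at −0.12 (SE 0.22), and its floxed arrays ran from 8.90 on replicate 3 to 9.81 on replicate 1. That floxed SD of 0.46 was the widest of the 37 genes, and the fold change was 0.09 without floxed replicate 3. Atg14, which directs the complex to the autophagosome, and Ambra1, a Beclin 1 partner, had log2 fold changes of 0.06 and 0.08. Without control replicate 3 these were −0.14 and −0.04.

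Genes of membrane supply and of the proteins that bind phosphatidylinositol 3-phosphate did not stand apart. Atg9a, which encodes a transmembrane protein of the vesicles that seed the membrane, stood at −0.12 (SE 0.15) for its log2 fold change. Wipi1 and Wipi2, whose products bind the lipid, had 0.03 (SE 0.20) and 0.03 (SE 0.14). Wipi1 had −0.19 without control replicate 3, on which its value was 7.91, against 8.57 and 8.55 on control replicates 1 and 2.

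The conjugation machinery had 6 of 7 genes with a higher mean in floxed arrays and a median log2 fold change of 0.10. In this machinery ATG7 is the activating enzyme, ATG3 and ATG10 are the conjugating enzymes, and ATG12 is joined to ATG5, which binds ATG16L1. Atg3 had 9.43, 9.18 and 9.47 in floxed arrays, against 9.42, 9.19 and 8.72 in control arrays. Floxed and control arrays overlapped except for control replicate 3, and the log2 fold change was 0.25 (SE 0.19), or 0.06 without that control. Atg5 had 8.55, 8.55 and 8.83 in floxed arrays, against 8.71, 8.44 and 8.09 in control arrays. Its log2 fold change was 0.23 (SE 0.19), and it was 0.81 with the filter at the 75th percentile, which left 1 probe set of the gene.

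Atg7 had 9.19, 9.14 and 8.98 in floxed arrays, against 9.01, 8.96 and 9.02 in control arrays. Its controls had an SD of 0.03, and the log2 fold change was 0.10 (SE 0.14). Atg12 had 8.33, 8.23 and 8.42 in floxed arrays, against 8.59, 8.21 and 7.89 in control arrays. All 3 floxed arrays lay inside the control range, with a log2 fold change of 0.10 (SE 0.20). Atg10, the conjugating enzyme for ATG12, and Atg16l1 had 0.05 (SE 0.21) and 0.17 (SE 0.16). Atg10 was at −0.17 without control replicate 3. Atg16l1 was at 0.64 with the filter at the 75th percentile, which left 3 of its probe sets. In that setting Atg16l1 and Atg5 had an unadjusted limma p under 0.05, 2 of 33 members against 4.53% of all genes.

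Atg16l2, a relative of Atg16l1, had the lowest log2 fold change of the 37 genes. Its values were 7.95, 8.16 and 8.01 in floxed arrays, against 8.11, 8.28 and 8.47 in control arrays, where floxed replicate 2 stood above control replicate 1. The log2 fold change was −0.25 (SE 0.17), but 13 of its 21 probe sets lay below the filter. With no filter it was 0.23, and with the filter at the 75th percentile, which left 1 probe set, 0.28, so its direction depends on which probe sets are kept.

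The ATG4 proteases trim LC3 and GABARAP proteins before they are attached and release them again, and 3 of 4 of their genes had a higher mean in floxed arrays. Atg4a had 8.87, 8.78 and 8.86 in floxed arrays, against 9.02, 8.46 and 8.40 in control arrays. The floxed arrays had an SD of 0.05 and lay below control replicate 1 and above the other 2 controls. The log2 fold change was 0.21 (SE 0.19), and 0.41 without control replicate 1. Atg4b, Atg4c and Atg4d had 0.20, 0.13 and −0.07, and Atg4c had −0.11 with no filter.

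The LC3 and GABARAP genes, which encode the proteins attached to the membrane, had 2 of 5 members higher and a median log2 fold change of −0.06. Map1lc3b, the source of the LC3B protein used to mark autophagosomes, had 10.62, 10.67 and 11.03 in floxed arrays, against 10.91, 10.90 and 10.70 in control arrays. Floxed replicates 1 and 2 were the lowest of the 6 arrays and floxed replicate 3 the highest, with a log2 fold change of −0.06 (SE 0.14). Gabarap had 11.17, 11.32 and 11.43 in floxed arrays, against 11.80, 11.42 and 11.20 in control arrays. Control replicate 1 was the highest, the other arrays overlapped, and the log2 fold change was −0.17 (SE 0.15). Gabarap stood at −0.01 without control replicate 1 and at 0.05 when its probe sets were averaged. Gabarapl1 and Gabarapl2 had 0.01 and −0.07, and Map1lc3a, with 1 of 4 probe sets past the filter, had 0.08. Gabarapl2 likewise rested on 1 of 3 probe sets, and was at 0.04 with no filter.

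Of the receptors, Sqstm1 and Optn had lower means and Fundc1 a higher mean in floxed arrays. Sqstm1 encodes p62, which binds ubiquitin and LC3 and is itself degraded by autophagy. It had 10.81, 10.67 and 11.00 in floxed arrays, against 10.85, 11.25 and 10.89 in control arrays. Control replicate 2 was the highest and floxed replicate 3 stood next to it, with a log2 fold change of −0.17 (SE 0.14). Sqstm1 was lower under the 12 alternatives that can move a fold change, at −0.39 to −0.04. Its smallest limma adjusted p was 0.0754, with array weights, a setting in which 404 of all 14586 genes passed. Optn, whose product optineurin binds ubiquitin on damaged mitochondria, had 8.27, 8.03 and 8.62 in floxed arrays, against 8.39, 8.63 and 8.61 in control arrays. Its log2 fold change was −0.24 (SE 0.19) and came to 0.01 with no filter.

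Fundc1, the mitochondrial receptor of hypoxia-induced mitophagy, had the tightest floxed values of the 37 genes and a wide control range. It had 10.95, 10.93 and 10.96 in floxed arrays, against 11.24, 10.49 and 10.62 in control arrays. The floxed arrays lay inside the controls, the log2 fold change was 0.17 (SE 0.18), and without control replicate 1 it was 0.40. With array weights the limma adjusted p of Fundc1 was 0.0712, the smallest of any member under any of the 15 alternatives. In that setting 404 of all 14586 genes passed. An unadjusted limma p under 0.05 was then found for 4 of 37 members, against 22.2% of all genes. Pink1 had 9.17, 9.15 and 9.32 in floxed arrays, against 9.32, 9.21 and 9.01 in control arrays. The groups overlapped throughout, with a log2 fold change of 0.03 (SE 0.15, 95% confidence interval −0.29 to 0.36).

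As reported, the lysosomal end of the pathway showed no difference past the spread. Tfeb encodes the transcription factor that activates lysosomal and autophagy genes. It had 8.55, 8.70 and 9.02 in floxed arrays, against 8.97, 8.71 and 8.31 in control arrays. The groups overlapped, with a range of 0.48 log2 in floxed and 0.65 in control arrays, and the log2 fold change was 0.09 (SE 0.20). Lamp1 and Lamp2 encode the main glycoproteins of the lysosomal membrane, and LAMP2A, a form of LAMP2, serves chaperone-mediated autophagy. Lamp1 had 11.03, 10.98 and 11.07 in floxed arrays, against 11.31, 10.86 and 10.80 in control arrays, with floxed arrays inside the controls and a log2 fold change of 0.04 (SE 0.14). Lamp2 had 11.15, 11.26 and 11.37 in floxed arrays, against 11.30, 11.16 and 10.91 in control arrays. Its log2 fold change was 0.14 (SE 0.13) and stayed higher under the same 12 alternatives, at 0.08 to 0.28. The 0.28 came with no filter, where the unadjusted limma p of Lamp2 was 0.0472 and the adjusted p 0.915. In that setting 1 of 37 members had an unadjusted limma p under 0.05, against 5.22% of all genes.

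**Figure D3:**
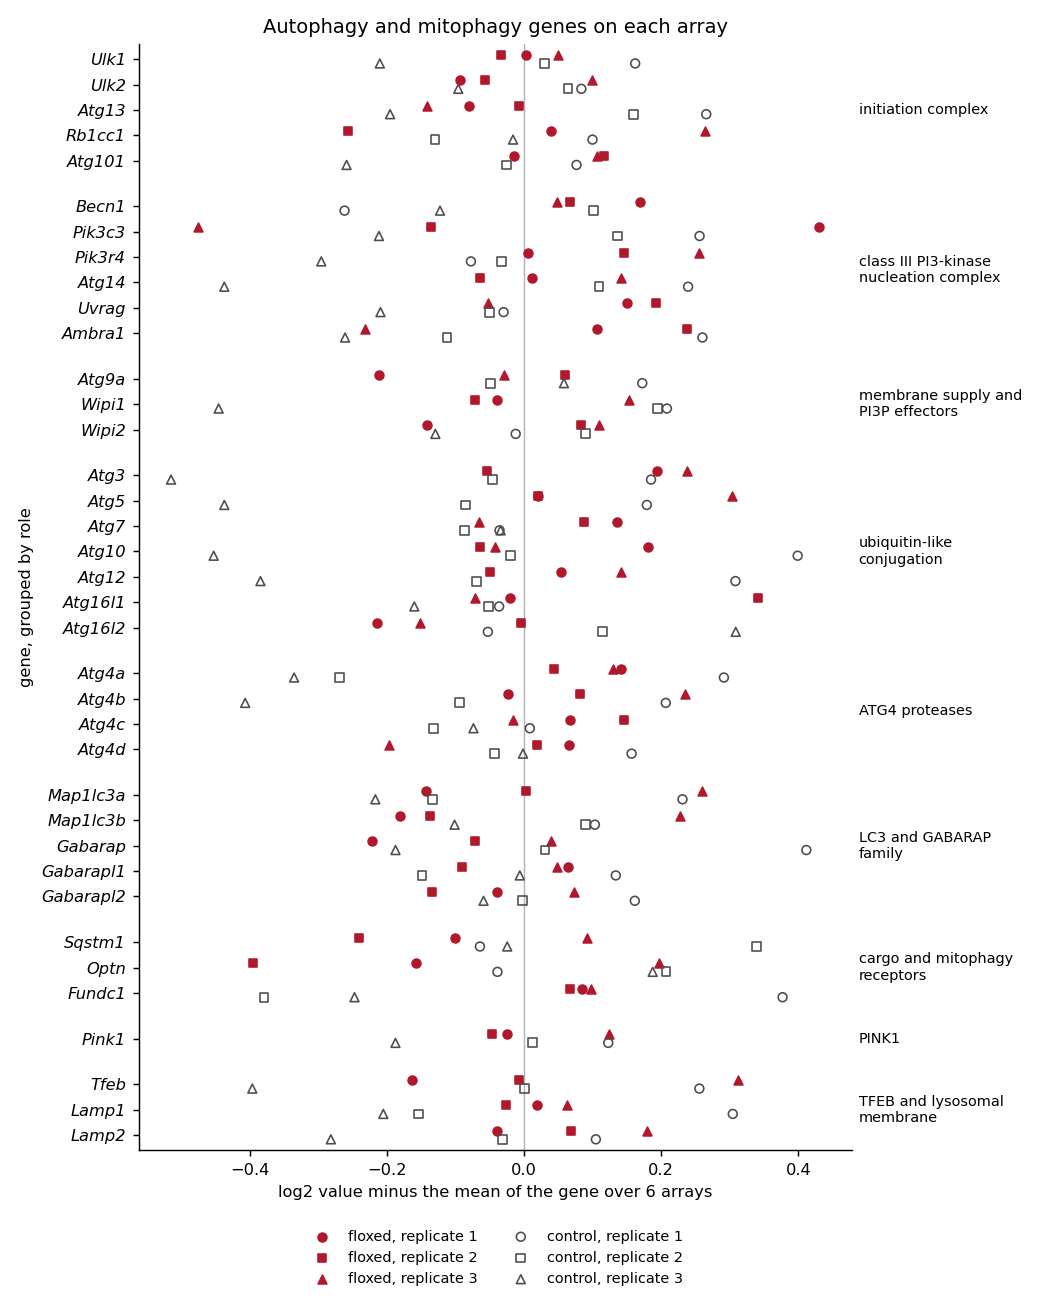
Log2 value of each gene on each of the 6 arrays, minus the gene's mean over the 6, grouped by role; filled red symbols are floxed and open grey symbols control arrays, and the symbol shape gives the replicate number. Floxed and control symbols interleave for every gene but Pik3r4, and control replicate 3 (open triangle) is lowest for 21 of 37 genes.

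TFEB binds the E-box CACGTG, which reads alike on both strands, and the promoters of some members hold it. RefSeq promoters of build GRCm38.p6, from 250 bases before to 50 after the transcription start, were at hand for 31 of the 38 genes. The E-box was found for 5 of 31 members (16.1%), against 8.09% of 27025 genes, or 7.15% of 32851 promoters. A gene counted where any of its promoters held CACGTG, and the 31 members had 35 promoters. Only promoters that held it are shown, and which promoter of a gene these cells use was not measured. These 5 were Lamp1, Atg3, Atg5, Atg7 and Atg14. A match is a description of the letters and not a bound site. The 150 bases before the start are shown for the 4 genes whose E-boxes all lie there, because they place CACGTG beside genes measured here. Capitals mark the E-box.
Lamp1, chr8:13159011-13159160, plus strand: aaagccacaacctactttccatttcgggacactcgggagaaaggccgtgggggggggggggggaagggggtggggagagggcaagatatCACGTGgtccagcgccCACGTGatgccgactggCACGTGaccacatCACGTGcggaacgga
Atg3, chr16:45158679-45158828, plus strand: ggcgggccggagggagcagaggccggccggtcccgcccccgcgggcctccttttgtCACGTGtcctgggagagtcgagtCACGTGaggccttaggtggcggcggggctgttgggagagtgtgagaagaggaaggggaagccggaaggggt
Atg5, chr10:44268189-44268338, plus strand: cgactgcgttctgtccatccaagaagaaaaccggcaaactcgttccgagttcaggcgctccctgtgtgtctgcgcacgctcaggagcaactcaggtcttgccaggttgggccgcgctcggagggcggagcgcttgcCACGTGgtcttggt
Atg7, chr6:114670946-114671095, plus strand: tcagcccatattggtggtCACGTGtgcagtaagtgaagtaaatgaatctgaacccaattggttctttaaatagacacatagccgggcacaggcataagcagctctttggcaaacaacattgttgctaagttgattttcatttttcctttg
Lamp1 held 4 E-boxes, whose first bases lie 15 to 61 bases before the start, and 8 of the 32851 promoters held at least 4. Atg3 held 2, at 71 and 94 bases, Atg5 held 1 at 14 bases and Atg7 held 1 at 132 bases. The 5 genes with an E-box had a median log2 fold change of 0.10, and the 26 without one had 0.03, none of them passing. Without control replicate 3, Atg14 was at −0.14 and Lamp1 at −0.06, while Atg3, Atg5 and Atg7 stayed higher. Whether the E-box bears on these fold changes was not tested. Binding was not measured here.

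Single probe sets, which read parts of a transcript, gave no call either. Of the 390 probe sets of the members, 0 passed in limma with adjustment over all 120788 probe sets, where 0.00414% of all passed, the smallest adjusted p of a member being 0.975. At an unadjusted p under 0.05 there were 11 (2.82%), 7 higher and 4 lower, against 4.35% of all probe sets, 3.21% higher and 1.14% lower. The groups did not overlap for 36 of 390 (9.23%), against 9.45% of all, 6.46% with floxed higher and 2.98% with floxed lower. Of the 390, 57.4% were higher in floxed arrays, and their median log2 fold change was 0.04, against 0.05 over all probe sets.

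Atg16l1 had a pair of neighbouring probe sets among the 11. On probe set 10348282 it had 9.79, 9.90 and 9.48 in floxed arrays, against 9.13, 8.83 and 9.29 in control arrays, which do not overlap (log2 fold change 0.64, SE 0.20). On the next probe set, 10348283, the log2 fold change was 0.55 (SE 0.21), again without overlap. The other 12 probe sets of Atg16l1 ran from −0.16 to 0.31. On probe set 10391413 of Becn1 the values were 10.09, 9.99 and 10.06 in floxed arrays, against 9.43, 9.70 and 9.49 in control arrays (log2 fold change 0.50, SE 0.17). Pik3r4 had 1 such probe set, 10588434, at 0.52 (SE 0.18).

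Of the genes with a probe set among the 11, only Ulk1 had them on both sides, 1 at 0.41 and 1 at −0.46. Pik3c3 and Rb1cc1 had 1 each on the lower side, at −0.37 and −0.44. Probe set 10445731 of Tfeb had 7.67, 7.99 and 7.04 in floxed arrays, against 8.16, 8.01 and 8.65 in control arrays, although the gene's median leaned the other way. Its log2 fold change was −0.71 (SE 0.30), with values close to the filter level of 7.60. On probe set 10362925 of Atg5 the values were 11.17, 10.89 and 11.19 in floxed arrays, against 11.08, 9.50 and 10.23 in control arrays, so control replicate 1 lay among the floxed arrays. Atg10 had 0.66 on its probe set 10410968. All 7 of Atg4a's kept probe sets were on the higher side, at 0.04 to 0.31, and 12 of 14 of Atg9a's on the lower side, at −0.39 to 0.07 over the 14. The probe sets of a gene share its RNA and are not independent. In limma's diffSplice test, an alternative added after the data were seen, 0 of 35 members with several probe sets passed (smallest adjusted p = 1), and 2 of 11831 genes did.

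**Figure D4:**
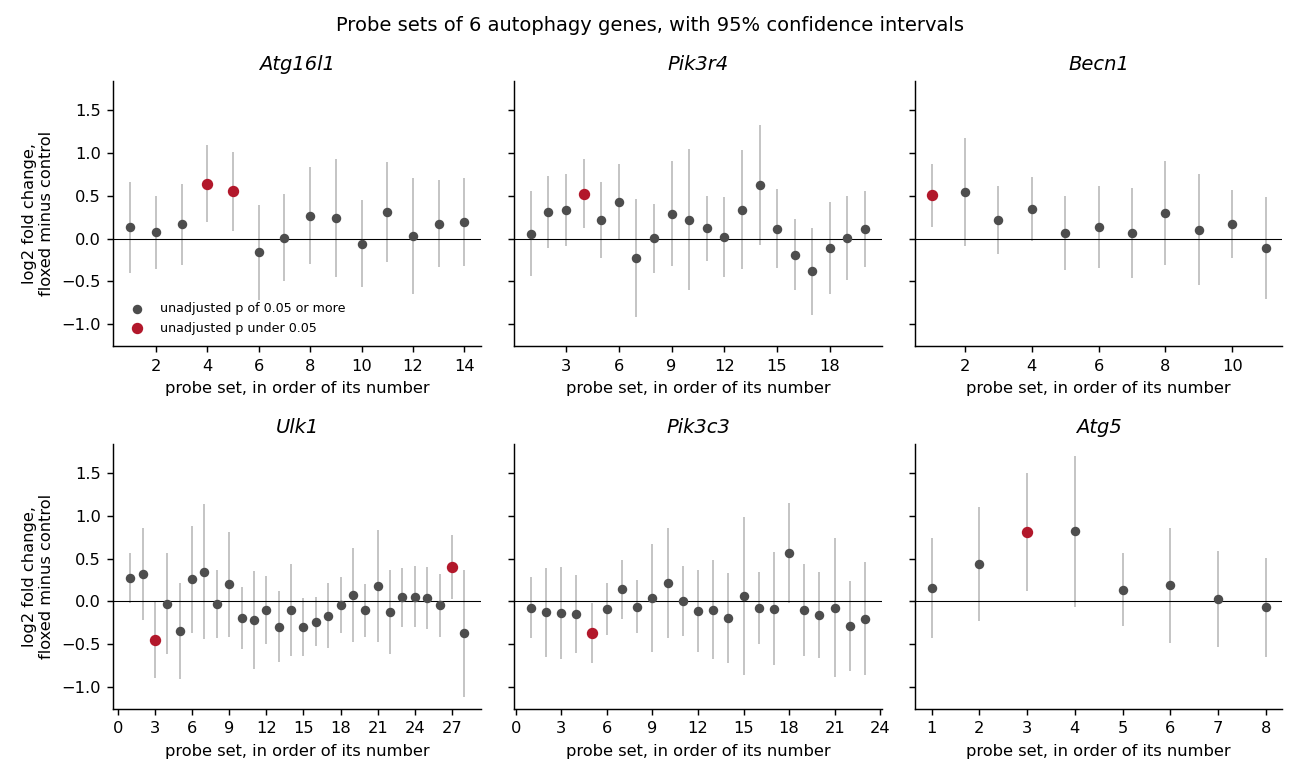
Log2 fold change, floxed minus control, of the kept probe sets of Atg16l1, Pik3r4, Becn1, Ulk1, Pik3c3 and Atg5, in the order of their probe-set number, with limma's 95% confidence intervals. Red points have an unadjusted p under 0.05; 2 lie next to each other in Atg16l1, Ulk1 has 1 on each side of 0, and none passed after adjustment.

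The members, like all genes, varied more among control than among floxed arrays. The median SD of a member was 0.13 log2 in floxed and 0.19 in control arrays, against 0.14 and 0.23 over all genes. The control SD was the larger for 25 of 37 members (67.6%), against 73.6% of all genes. For 11 of 37 members (29.7%) all floxed values lay inside the control range, against 38.5% of all genes. The reverse held for 4 of 37, against 8.32% of all genes. Control replicate 3 had the lowest value for 21 of 37 members (56.8%), against 34.7% of all genes. Control replicate 1 had the highest for 15 of 37 (40.5%), against 22.5% of all genes. The median deviation of the 37 genes from their own means was 0.00, −0.01 and 0.10 log2 on floxed replicates 1, 2 and 3, against 0.16, −0.03 and −0.21 on control replicates 1, 2 and 3. Over all genes it was −0.02, 0.02 and 0.04 on the floxed arrays, against 0.00, 0.03 and −0.08 on the controls. The 2 extreme arrays were thus both controls, with the floxed arrays between them.

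**Figure D5:**
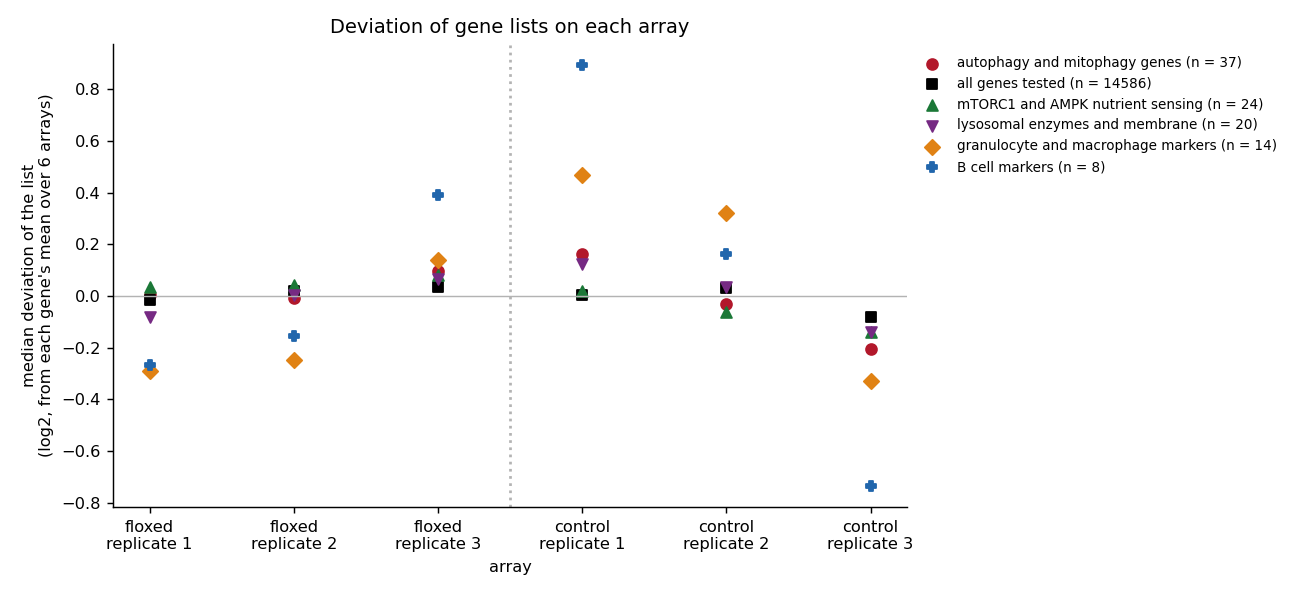
Median deviation of 6 gene lists from each gene's mean over 6 arrays, on the log2 scale, with floxed arrays left and control arrays right of the dotted line. The 37 autophagy and mitophagy genes are highest on control replicate 1 (0.16) and lowest on control replicate 3 (−0.21), and markers of B cells span 0.89 to −0.74 on the same arrays.

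Markers of other blood cells differed between the same arrays, and their part in the members' values was not tested. Of 9 B cell markers 8 were measured, with median deviations of −0.27, −0.15 and 0.39 on the floxed arrays, against 0.89, 0.16 and −0.74 on the controls. Their summed level ran from 12.17 to 12.91 log2 in floxed and from 11.89 to 13.54 in control arrays. Of 15 granulocyte and macrophage markers 14 were measured, 12 of them lower in floxed arrays, with deviations of −0.29, −0.25 and 0.14, against 0.47, 0.32 and −0.33. Their summed level ran from 13.89 to 14.36 log2 in floxed and from 13.85 to 14.66 in control arrays. Of 12 erythroid and megakaryocyte markers 9 were measured, 8 of them lower in floxed arrays. Their summed level ran from 13.93 to 14.24 log2 in floxed and from 14.05 to 14.25 in control arrays. For 6 of 8 T and NK cell markers it was 11.48 to 11.72 in floxed and 11.47 to 11.97 in control arrays. For 7 of 8 markers of stroma and endothelium it was 12.21 to 12.23 in floxed and 12.30 to 12.40 in control arrays. No marker can be called absent, since detection calls were not used. In sorted bulk samples, fewer cells of a type and less RNA per cell cannot be told apart.

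Within these lists, log2 fold changes were −0.88 (SE 0.28) for the neutrophil granule gene Ngp, −0.48 for the erythropoietin receptor gene Epor, −0.63 for the T cell gene Cd4 and −0.50 for the endothelial gene Cldn5. The genes of highest mean in the other lists were Mpo of granules at 0.05, Car1 of erythroid cells at −0.14, Ighm of B cells at −0.24, Nkg7 of NK cells at 0.07 and Runx2 of stroma at −0.16. The pre-B cell gene Vpreb1 had −0.14. No marker passed as reported. With array weights Ngp, Mmp8, Lcn2, Ltf and Epor passed, among 404 of all 14586 genes. Of 13 stem cell markers 11 were measured, 7 higher and 4 lower in floxed arrays. Their median deviations were −0.04, −0.05 and 0.14 log2 on the floxed arrays, against 0.14, −0.12 and −0.16 on the controls. Kit had 11.73 ± 0.11 in floxed and 11.84 ± 0.06 in control arrays (SD, n = 3 each, as for the next genes). Ly6a, which encodes Sca-1, had 11.28 ± 0.25 in floxed and 11.29 ± 0.52 in control arrays. Cd34 had 12.65 ± 0.04 in floxed and 12.68 ± 0.03 in control arrays. Ctnnal1 had a log2 fold change of 0.31. Cd34 RNA does not check a gate on surface protein. Ctnnb1, the floxed gene, had 10.50 ± 0.19 in floxed and 11.38 ± 0.15 in control arrays (SD, n = 3 each) as the median of 16 probe sets, with no overlap (log2 fold change −0.88, SE 0.14, limma adjusted p = 0.667). With the mean of its probe sets it was −1.64 and passed (limma adjusted p = 0.000269), and with the filter at the 75th percentile it was −0.16. The 2 genes that passed the diffSplice test, of 11831, were Ctnnb1 and Commd10, so the probe sets of Ctnnb1 differed among themselves.

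Genes around the core machinery gave no call, in 8 lists with 132 measured genes. Groups that do not overlap are marked only for the genes named below, which are not all such genes. In the order below, the 8 lists held 0 of 14, 1 of 12, 2 of 18, 2 of 18, 2 of 24, 1 of 11, 2 of 20 and 1 of 15 of them. The share over all genes was 8.44%. Of 14 further genes of autophagosome formation, 9 were higher and 5 lower in floxed arrays (median log2 fold change 0.02), and 5 were higher with quantile normalization. Wdr45b, a relative of the WIPI genes, had 0.32 (SE 0.18) and the kinase gene Ulk3 had −0.22 (SE 0.18). Of 12 genes for fusion with the lysosome, 6 were higher and 6 lower (median 0.01). Vps16, a subunit of the tethering complex HOPS, had 9.33, 9.03 and 9.18 in floxed arrays, against 8.88, 8.98 and 8.75 in control arrays, without overlap (log2 fold change 0.31, SE 0.15). The small GTPase gene Rab7 had −0.17 (SE 0.12).

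Of 18 further receptor genes, 12 were higher and 6 lower (median log2 fold change 0.05), and 7 of 17 were higher with the filter at the 75th percentile. Calcoco1, a receptor for the endoplasmic reticulum and Golgi, had 9.51, 9.55 and 9.92 in floxed arrays, against 9.71, 10.31 and 10.09 in control arrays (log2 fold change −0.37, SE 0.18). With array weights Calcoco1 passed (−0.61, limma adjusted p = 0.0354), among 404 of all 14586 genes. Its limma adjusted p ran up to 0.9998 over the other alternatives. Nipsnap2, whose product marks damaged mitochondria for autophagy, had 0.25 (SE 0.13) without overlap. Bnip3l, the mitophagy receptor of maturing red cells, had 11.92, 11.94 and 12.11 in floxed arrays, against 12.37, 11.93 and 11.86 in control arrays (log2 fold change −0.06, SE 0.14). Bnip3, its hypoxia-induced relative, had 8.90, 9.55 and 9.05 in floxed arrays, against 9.85, 8.41 and 10.25 in control arrays. Controls stood at both ends of the 6 arrays, and the log2 fold change of −0.34 (SE 0.38) was 0.03 without control replicate 3 and −0.88 without control replicate 2.

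Genes of mitochondrial ubiquitin and dynamics were higher for 15 of 18, with a median log2 fold change of 0.10. Parl, the mitochondrial protease that cuts PINK1, had 10.20, 9.96 and 9.92 in floxed arrays, against 9.84, 9.66 and 9.45 in control arrays (log2 fold change 0.37, SE 0.15). Its groups did not overlap, and it was 1 of 18 in the list at an unadjusted p under 0.05, against 3.7% of all genes. Mfn1, which fuses mitochondrial outer membranes, had 0.28 (SE 0.14), also without overlap. The median deviation of this list on control replicate 3 was −0.20 log2. Without that array 12 of the 18 were higher, against 50.4% of all genes. The nutrient-sensing genes of mTORC1, which inhibits autophagy, and of AMPK, which activates it, were higher for 20 of 24, with a median of 0.07. Without control replicate 3, 12 of the 24 were higher, and with the filter at the 75th percentile 8 of 20. Prkag2, a regulatory subunit of AMPK, had 0.32 (SE 0.14) and was 1 of 24 in the list at an unadjusted p under 0.05, against 3.7% of all genes. Rheb, the activator of mTORC1, had 0.22 (SE 0.13), and neither of these overlapped between groups. Mtor itself had 0.04 (SE 0.14).

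Transcriptional regulators of autophagy were higher for 5 of 11, with a median log2 fold change of −0.02, for 8 without control replicate 1 and for 3 without control replicate 3. Foxo3 had 10.27, 10.28 and 10.45 in floxed arrays, against 10.36, 10.64 and 10.60 in control arrays. Floxed replicate 3 stood above control replicate 1, and the log2 fold change of −0.20 (SE 0.13) kept its sign under the 12 alternatives that can move a fold change. Zkscan3, a repressor of autophagy genes, had 0.34 (SE 0.16) without overlap, and −0.14 with the filter at the 75th percentile. Lysosomal enzyme and membrane genes were higher for 10 of 20, with a median of 0.00. The peptidase gene Tpp1 had 9.67, 9.71 and 9.91 in floxed arrays, against 10.21, 9.95 and 10.03 in control arrays, without overlap (log2 fold change −0.30, SE 0.14). It was 1 of 20 in the list at an unadjusted limma p under 0.05, against 3.7% of all genes. The cathepsin gene Ctsb had −0.31 (SE 0.16). The vacuolar ATPase, which acidifies lysosomes, was higher for 7 of 15, with a median of −0.02, and for 4 without control replicate 3 or floxed replicate 3. Its subunit genes Atp6v0b and Atp6v0a1 had 0.21 (SE 0.14), without overlap, and −0.26 (SE 0.17).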

How the data were processed

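Values deposited by the authors were log2 signals of 241576 probe sets on 6 arrays, from biotinylated cRNA of 100 ng total RNA, per the labels' protocols. The base was taken from the values, 2.44 to 14.53. MAS5 is named in the submitters' processing notes with no role; background correction and normalization are not given in the sources used here. Array medians were 7.56 to 7.65 and no further normalization was applied. The number of arrays limits the precision. Symbols came from a platform annotation with 1 gene for 212097 probe sets, several for 4475 and none for 25004. Gene values used only the first kind, with 2742 symbols updated through RefSeq, while the fit of single probe sets covered all kept ones.

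Probe sets were kept where their mean reached the median of all means, 7.60 (120788 probe sets, 110361 of them with 1 gene). Gene values, medians over kept probe sets, entered limma 3.58.1 under R 4.3.3, by lmFit and eBayes with trend, two-sided, adjusted by Benjamini-Hochberg over all genes. The steps were tested on simulated data with planted changes larger than any seen for the members, so that test does not show whether smaller changes could be called. Members and lists were chosen with earlier results of these data known, so their directions are descriptions. Named were all measured members, with values per array for the 10 of smallest p and the textbook members, Fundc1 being added after its values were seen. Of each pathway list the 2 genes of smallest p were named, with Bnip3, Bnip3l, Foxo3 and Mtor, and of each marker list the gene of highest mean and of smallest p. No sample was left out, and the closing section gives 15 alternative settings.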

Additional observations from a re-analysis of the deposited data

How the results depend on the processing

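Log2 fold changes were recomputed under 15 settings, each with 1 step exchanged. These were quantile normalization, array medians set equal, no filter on dim probe sets or one at the 75th percentile, means of probe sets, eBayes without trend or in robust form, array weights, a replicate block and leaving out each array. Under all 15, 0 members passed, with limma adjusted p from 0.0712 to 0.9999, and 0 of their probe sets passed in the 14 settings that tested these. eBayes without trend, robust eBayes and the replicate block leave fold changes as they are, so 12 settings bear on direction. Of the 37 members, 13 kept their sign wherever measured and 24 did not. An unadjusted limma p under 0.05 was found for Lamp2 with no filter (1 of 37, against 5.22% of all genes). It was found for Atg5 and Atg16l1 with the filter at the 75th percentile (2 of 33, against 4.53%). Without control replicate 1 it was found for Atg3, Atg4a and Fundc1 (3 of 37, against 16.6%). With array weights it was found for Atg4a, Fundc1, Optn and Sqstm1 (4 of 37, against 22.2%). The number of all genes past the threshold was 0 as reported, 404 with array weights, 2 with no filter, 1 with means of probe sets and 0 to 2 when 1 array was left out (2 without control replicate 1). The number of higher members was 15 without control replicate 3 and 20 without floxed replicate 3, 21 without control replicate 2 and 25 without any other single array. Higher nutrient-sensing genes numbered 8 of 20 with the higher filter, and other formation genes 5 of 14 with quantile normalization or equal medians. Array weights also brought past the threshold Ctnnb1 (−1.03), Calcoco1 (−0.61), Ngp (−1.09) and Epor (−0.71). With quantile normalization the sign turned for Ulk1 (−0.022), Rb1cc1 (−0.012), Wipi1 (−0.0070), Gabarapl1 (−0.012) and Pink1 (−0.0026). With equal array medians the sign turned for Ulk1 (−0.018), Rb1cc1 (−0.00012), Wipi1 (−0.0030) and Gabarapl1 (−0.017). With no filter the sign turned for Ulk1 (−0.095), Wipi2 (−0.0088), Atg16l2 (0.23), Atg4c (−0.11), Gabarapl2 (0.036), Optn (0.012), Mpo (−0.075) and Cldn5 (0.018). With the higher filter the sign turned for Ulk1 (−0.13), Ulk2 (0.057), Rb1cc1 (−0.014), Atg9a (0.081), Atg7 (−0.0082), Atg16l2 (0.28), Atg4d (0.053), Mtor (−0.0048), Zkscan3 (−0.14) and Mpo (−0.038). With means of probe sets the sign turned for Ulk1 (−0.037), Ulk2 (0.0035), Rb1cc1 (−0.025), Gabarap (0.049), Pink1 (−0.00098), Cd34 (0.043), Mpo (−0.027) and Nkg7 (−0.032). With array weights the sign turned for Ulk1 (−0.017), Atg14 (−0.054), Wipi1 (−0.14), Wipi2 (−0.032), Atg4d (0.0014), Ly6a (0.23), Bnip3 (0.55), Bnip3l (0.030), Mtor (−0.012), Mpo (−0.045), Ighm (0.29) and Runx2 (0.022). When 1 array was left out, lowest and highest log2 fold changes of opposite sign were found for Ulk1 (−0.089 to 0.097), Ulk2 (−0.11 to 0.0035), Rb1cc1 (−0.14 to 0.17), Pik3c3 (−0.28 to 0.088), Atg14 (−0.14 to 0.11), Ambra1 (−0.036 to 0.22), Wipi1 (−0.19 to 0.14), Wipi2 (−0.022 to 0.11), Atg10 (−0.17 to 0.12), Atg12 (−0.051 to 0.27), Atg4d (−0.13 to 0.0048), Map1lc3a (−0.030 to 0.21) and Map1lc3b (−0.19 to 0.014). The same held for Gabarapl1 (−0.057 to 0.085), Pink1 (−0.050 to 0.10), Tfeb (−0.081 to 0.24), Lamp1 (−0.057 to 0.20), Ly6a (−0.20 to 0.28), Bnip3 (−0.88 to 0.033), Bnip3l (−0.16 to 0.099), Mtor (−0.022 to 0.11), Mpo (−0.091 to 0.14), Ighm (−0.63 to 0.38), Vpreb1 (−0.28 to 0.060), Nkg7 (−0.15 to 0.31) and Runx2 (−0.27 to 0.071). The causes were not tested. With the replicate block 0 genes passed (smallest limma adjusted p = 0.999). Replicates of the same number correlated at 0.198, −0.00365 and −0.243 in their deviations from the group means, so the numbers were not taken to pair the samples. Depth is not defined for arrays, and no detection calls were used, so signal over background is unknown for each gene; 3 arrays a group limit what could be called.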
